A study of Mus musculus with 23 samples.

Results

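The genes described here load and display peptides on MHC class II, and they were followed through 23 RNA-seq libraries of sorted brain macrophages. The members were chosen by symbol in the table of counts per gene: H2-Aa, H2-Ab1, H2-Eb1, Cd74, H2-DMa, H2-DMb1, H2-DMb2, H2-Oa and Ciita. All 9 symbols were found among 33280 genes. The mice were Ccr2creERT2/+ R26tdT/tdT in every group, so the controls too carried creERT2 at 1 Ccr2 allele. In these mice tamoxifen, given at 2 mg on the last gavage day and again later, marks cells that express Ccr2, and their progeny, with tdTomato (tdT). Young adult mice were gavaged for 7 days with BLZ945 at 200 mg/kg, which blocks CSF-1R and so removes brain macrophages, or with vehicle (CTL). A stroke was caused 8 weeks later with thrombin in the middle cerebral artery, and cells were sorted 1 day after it from brain slices without choroid plexus.

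Microglia (MG) were sorted as CD206-negative cells, and subdural CNS-associated macrophages (sdCAMs), which line vessels and the soft meninges, as CD206-positive cells that were tdT- or tdT+. By the methods, both were taken from CD11b+ cells that carried CD45 and lacked Ly6C, Ly6G and CD11c, a gate that would leave out most B and T cells, Ly6C+ monocytes, neutrophils and CD11c+ dendritic cells. There were 5 libraries each of MG and of tdT- cells from CTL mice, 5 of each from BLZ945 mice, and 3 of tdT+ cells (F2, F3, M2) from BLZ945 mice. No library of tdT+ cells from CTL mice was analysed here. A CTL library held cells of 1 animal, and a BLZ945 library held cells of 2 pooled animals, except F2 with 1 animal, so the effects of treatment and of pooling cannot be told apart. Within a treatment, libraries with the same label (F1, F2, F3, M1, M2) came from the same animal or pool. One animal number occurs in the library names of both BLZ945 F2 and BLZ945 M1, so these 2 may not be independent.

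As background, a class II molecule is a pair of an α and a β chain that presents peptides from the endosome to CD4+ T cells. H2-Aa and H2-Ab1 encode the chains of I-A, and H2-Eb1 encodes the β chain of I-E. Cd74 encodes the invariant chain, which holds the new pair together and fills its groove until the endosome is reached. H2-DM, made from H2-DMa with H2-DMb1 or H2-DMb2, removes the last piece of the invariant chain and edits the bound peptides. H2-O, made from H2-Oa and H2-Ob, restrains H2-DM. Ciita encodes the transactivator that switches class II genes on, through factors bound to the X and Y boxes of their promoters. In the brain, macrophages at the borders are known to carry more class II than microglia of the parenchyma.

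Total counts ran from 9433960 to 13276081 per library, and 3 counts, the level taken as the floor, equalled 0.23 to 0.334 CPM, the counts of a gene relative to the scaled total of its library. Such floors cover counting error only, since PCR reads without molecular identifiers are not independent molecules. The sorts carried their own markers: the summed level of 4 microglial markers (P2ry12, Tmem119, Sall1, Siglech) was 6345 to 11179 CPM in MG and 483 to 1055 CPM in sdCAMs, and that of 5 sdCAM markers (Mrc1, Cd163, Lyve1, Pf4, Ms4a7) was 9.89 to 47.6 CPM in MG and 8275 to 14061 CPM in sdCAMs. One library stood apart: tdT- BLZ945 F1 held 231 CPM over 5 monocyte markers and 90.8 CPM over 7 dendritic cell markers, with Ccr2 at 121 CPM, Plac8 at 78.2 CPM and Ccr7 at 45.6 CPM, while Xcr1 and Clec9a were at 0. It also held 74.2 CPM over 3 neutrophil markers, all of it Retnlg, and 8.25 CPM over 5 markers of T and NK cells, against at most 3.06 and 0.584 CPM in the other tdT- BLZ945 libraries. Plac8 was also 73.5 CPM in tdT- BLZ945 M1. Markers of choroid plexus epithelium (3 genes, led by Ttr) reached 1715 CPM in tdT+ BLZ945 F3 and 546 CPM in MG BLZ945 F3, and were 152 CPM in tdT- BLZ945 F3, from the same pool, and 81.3 CPM in tdT- CTL M1, against at most 24.9 CPM elsewhere. Values without these libraries are given beside the differences of H2-Aa and Cd74.

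The class II promoters are shown because they carry the DNA elements through which Ciita acts, while the members turned out not to share 1 pattern of expression. RefSeq windows of 300 bases (250 before to 50 after a gene start, GRCm38.p6) were found for 6 of the 9 members, in 7 windows. They were searched on both strands for TGANG, an X2-like core, followed after 15 to 22 bases by ATTGG, the core of the Y box. The pair was chosen after the sequences were seen, so its presence in them is no test of enrichment. It lay on the sense strand of 4 members, H2-Aa, H2-Eb1, H2-DMb1 and H2-DMb2. Of 32851 windows of this kind, 1.28% hold it on the sense strand and 2.2% on either strand. The stretches below run 5′ to 3′, from 20 bases before the pair to 20 after it, with TGANG and ATTGG in capitals.
H2-Aa (chr17:34287847-34287917, minus strand): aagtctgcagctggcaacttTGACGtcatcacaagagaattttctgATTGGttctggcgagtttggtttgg
H2-Eb1 (chr17:34305764-34305832, plus strand): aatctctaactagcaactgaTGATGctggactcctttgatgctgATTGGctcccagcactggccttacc
H2-DMb1 (chr17:34153085-34153154, plus strand): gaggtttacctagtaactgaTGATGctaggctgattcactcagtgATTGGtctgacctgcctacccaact
H2-DMb2 (chr17:34145114-34145183, plus strand): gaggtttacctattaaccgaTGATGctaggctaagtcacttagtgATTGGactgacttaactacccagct
The distance between both cores was 21 bases in H2-Aa, 19 in H2-Eb1 and 20 in H2-DMb1 and H2-DMb2. In the windows of H2-Oa and H2-DMa these letters were not found in this order, though ATTGG alone, which 37.4% of all windows hold on either strand, was present in H2-Oa and in the second of the H2-DMa windows. H2-Ob, no member but the partner of H2-Oa, held the pair with 17 bases between. Matches describe the sequence and are not evidence of binding.

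**Figure D1:**
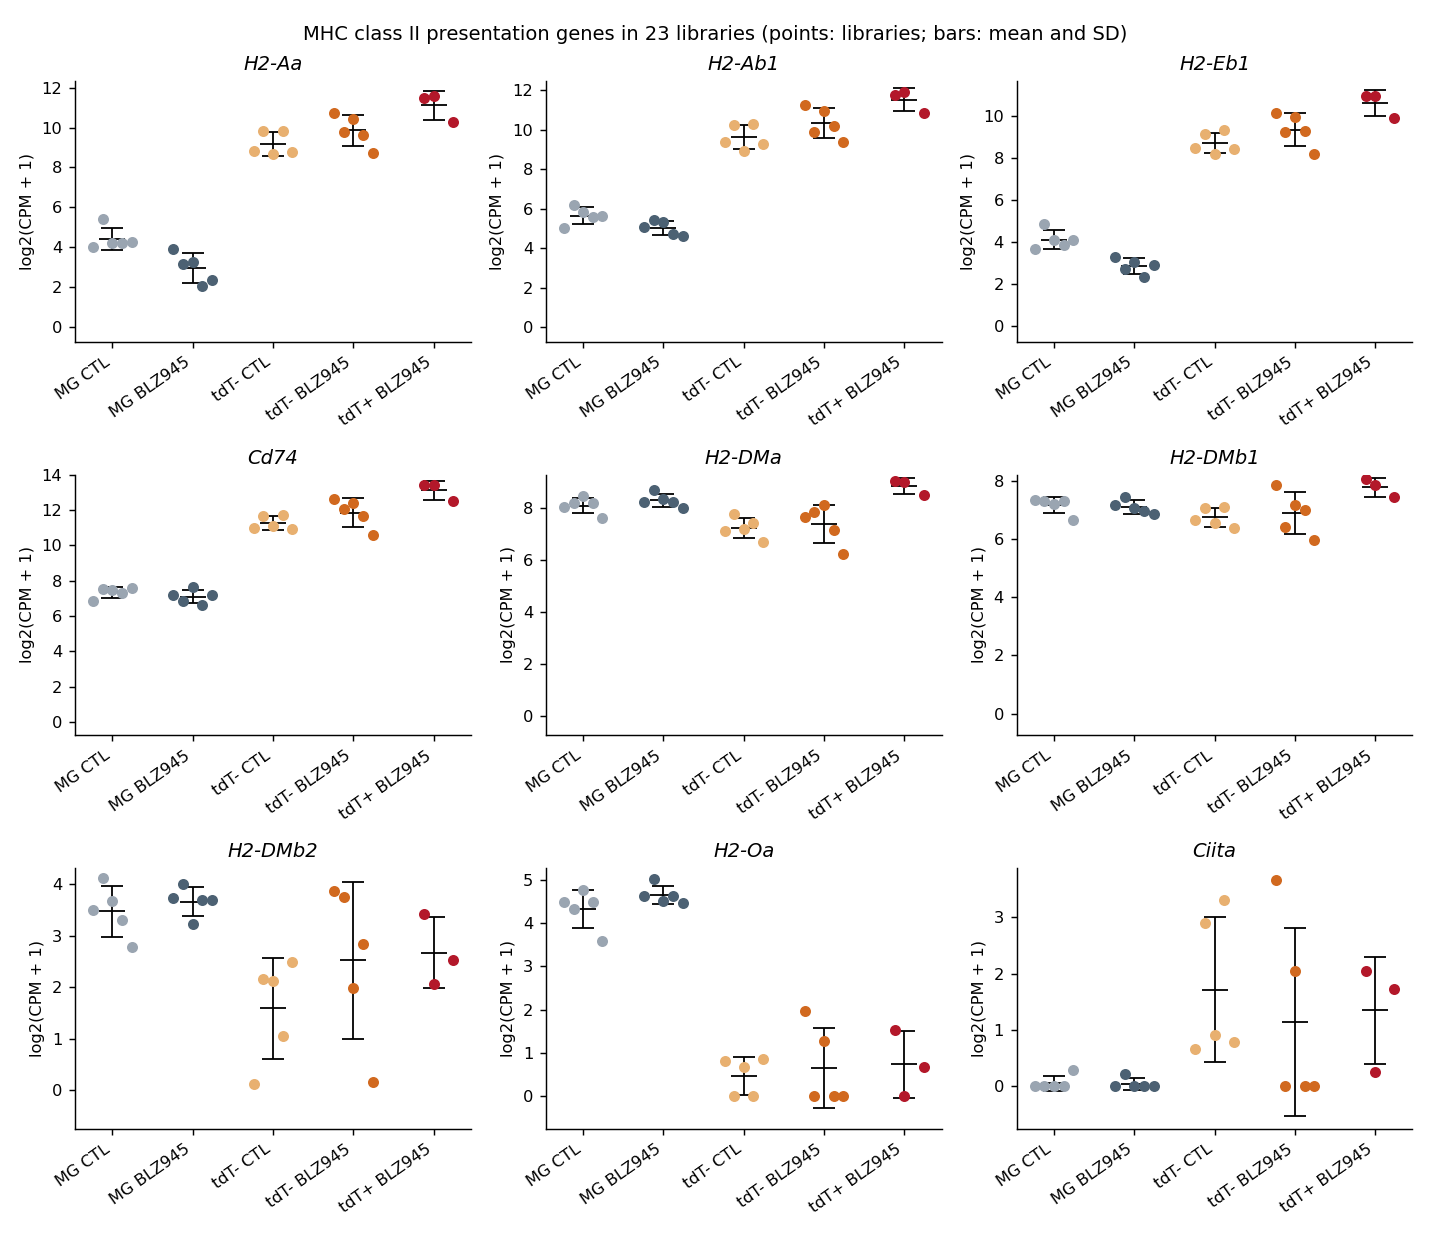
Level of each member in each library, as log2(CPM + 1) on the vertical axis, for the 5 groups on the horizontal axis (points: libraries; bars: mean and SD). The chain genes and Cd74 are low in MG and high in sdCAMs, H2-DMa and H2-DMb1 differ less between groups, and H2-Oa is high only in MG.

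The chain genes and Cd74 were far higher in sdCAMs than in MG. H2-Aa was 14.9 CPM in MG CTL F1, 40.9 in F2, 17.3 in F3, 17.5 in M1 and 18.5 in M2. In tdT- CTL it was 459.5 CPM in F1, 894 in F2, 406 in F3, 901 in M1 and 429 in M2, so that the lowest sdCAM library lay far above the highest MG library. Cd74 was 113, 182, 174, 159.8 and 194 CPM in the same order in MG CTL, and 1992, 3254, 2196, 3337 and 1970.5 CPM in tdT- CTL. The invariant chain thus had the same order of groups as the chains it accompanies. H2-Eb1 ran from 11.6 to 27.6 CPM in MG CTL and from 295 to 646 CPM in tdT- CTL, and H2-Ab1 from 31.7 to 72.3 CPM and from 492 to 1241 CPM.

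All 4 genes were called higher in tdT- sdCAMs than in MG of CTL mice (edgeR quasi-likelihood test, adjusted p under 0.05), where 15.3% of 12697 genes were called higher. The log2 difference was 4.83 ± 0.45 (SE) for H2-Aa, 4.05 ± 0.36 for H2-Ab1, 4.70 ± 0.35 for H2-Eb1 and 3.96 ± 0.31 for Cd74, with edgeR adjusted p between 9.58e-10 and 2.38e-08. Without tdT- CTL M1 the differences were 3.84 to 4.66, all called. In BLZ945 mice the same 4 genes were called, against 18.3% of genes, and the differences were 7.12 ± 0.50, 5.48 ± 0.38, 6.82 ± 0.39 and 4.89 ± 0.32. Between tdT+ sdCAMs and MG of BLZ945 mice they were 8.31 ± 0.56, 6.57 ± 0.42, 8.01 ± 0.44 and 6.07 ± 0.40, again all called, against 11.8% of genes. Without 1 of the libraries that carried markers of other cells (tdT- BLZ945 F1, F3 or M1, MG BLZ945 F3 or tdT+ F3) all 4 stayed called, with differences from 4.69 to 7.19 for tdT- and from 5.91 to 8.37 for tdT+ cells. H2-Aa and H2-Eb1 therefore differed more between the cell types than Cd74 did, as a description of these values. In bulk libraries, fewer cells with a transcript and less transcript per cell cannot be told apart.

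Per kb of exon, with all annotated exons of a gene merged, the members ranked differently in the cell types. Merged lengths were 3798 bases for H2-Aa, 1944 for H2-Eb1, 3448 for H2-DMa and 1681 for H2-DMb1. They are not lengths of a single transcript, and the order of genes depends on them. In mean CPM of tdT- CTL, H2-Aa (618) lay above H2-Eb1 (439) and H2-DMa (156) above H2-DMb1 (110). With exon lengths from GENCODE vM21, which may differ from the annotation used for counting, Cd74 was first in sdCAMs, at 1519 ± 409 (SD, n = 5) CPM per kb in tdT- CTL. H2-Ab1 followed at 327 ± 136, H2-Eb1 at 226 ± 79.1 and H2-Aa at 163 ± 67.4 CPM per kb, neighbours whose spreads overlap. H2-DMb1, at 65.3 CPM per kb, and H2-DMa, at 45.3 ± 12.3 CPM per kb, were lower than these. In MG CTL, Cd74 at 98.1 ± 18.6, H2-DMb1 at 86.5 ± 15.1 and H2-DMa at 81.5 ± 16.4 CPM per kb stood together at the top within their SDs. The chains came after them, with H2-Ab1 at 19.8 ± 5.83, H2-Eb1 at 8.72 ± 3.20 and H2-Aa at 5.74 ± 2.83 CPM per kb. The 9 members took 0.0756 ± 0.0104% of all counts in MG CTL, 0.463 ± 0.149% in tdT- CTL and, among BLZ945 mice, 0.0712 ± 0.0088% in MG, 0.725 ± 0.346% in tdT- cells and 1.64 ± 0.551% in tdT+ cells (SD).

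The peptide editor had a different order of groups, with H2-DMa and H2-DMb1 lowest by mean in tdT- sdCAMs. H2-DMa, the α chain of H2-DM, was 266, 295, 352, 294 and 197 CPM in MG CTL (F1, F2, F3, M1, M2) and 141, 218, 145, 172 and 104 CPM in tdT- CTL. Its lowest MG library lay below its highest sdCAM library, and the remaining MG libraries lay above all sdCAM libraries. It was called lower in tdT- sdCAMs, by -0.84 ± 0.26 (log2, SE) in CTL mice (edgeR adjusted p = 0.0185) and by -0.79 ± 0.26 in BLZ945 mice (edgeR adjusted p = 0.0220), where 10.3% and 14.1% of genes were called lower. In CTL mice the adjusted p was 0.0532 without MG CTL F3 and 0.0543 without tdT- CTL M2, and in BLZ945 mice 0.0610 without MG BLZ945 F2 and 0.0521 without tdT- BLZ945 M1. H2-DMb1, the main β chain by counts, was 102 to 163 CPM in MG CTL and 82.6 to 137 CPM in tdT- CTL, and its difference of -0.40 ± 0.25 was not called (95% interval -0.89 to 0.09). H2-DMb2, the second β chain, was 5.90 to 16.4 CPM in MG CTL and 0.0842 to 4.62 CPM in tdT- CTL. Its difference of -2.06 ± 0.77 was not called (edgeR adjusted p = 0.0527, and 0.0453 without tdT- CTL M2). DESeq2 called it, where 25.9% of 15359 genes were called in either direction. H2-DMb2 and H2-Oa were the 2 members whose tdT- CTL libraries all lay below the MG CTL libraries, against 12.1% of genes. In tdT+ sdCAMs H2-DMa was 473 ± 90.5 CPM and H2-DMb1 225 ± 49.1 CPM, against 323 ± 59.7 and 139 ± 23.1 CPM in MG BLZ945 (SD), and the differences of 0.56 ± 0.30 and 0.71 ± 0.31 (log2, SE) were not called (edgeR adjusted p = 0.228 and 0.133). H2-DMb1 and H2-DMb2 are close copies, and how reads that fit both were counted is not given in the sources used here.

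Set against the chains, H2-DM differed between the cell types by a large factor. For each read of H2-Aa, H2-Ab1 and H2-Eb1 together, MG CTL libraries held 3.34 to 7.57 reads of H2-DMa, H2-DMb1 and H2-DMb2, and MG BLZ945 libraries 8.34 to 13.3. In sdCAMs the figures were 0.111 to 0.202 in tdT- CTL, 0.0844 to 0.135 in tdT- BLZ945 and 0.0846 to 0.135 in tdT+ BLZ945. MG thus held more editor than chain reads in every library, and sdCAMs the reverse. The mean log2 ratio of tdT- sdCAMs differed from that of MG by -5.09 in CTL mice and by -6.64 in BLZ945 mice, a 34.0-fold and a 99.7-fold difference, and the groups did not overlap (two-sided exact permutation test, p = 0.00794 each, the smallest p for 5 against 5). Adjusted over the 28 ratio tests made, these p-values were 0.0556, so none of the 28 passed the threshold. Cd74 reads per chain read were 1.30 to 2.36 in MG CTL, 2.08 to 4.23 in MG BLZ945, 1.20 to 1.84 in tdT- CTL, 1.11 to 1.75 in tdT- BLZ945 and 1.24 to 1.43 in tdT+ BLZ945. H2-Eb1 reads per H2-Aa read were 0.625 to 0.789 over the 13 sdCAM libraries, a narrow range beside that of either gene.

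**Figure D2:**
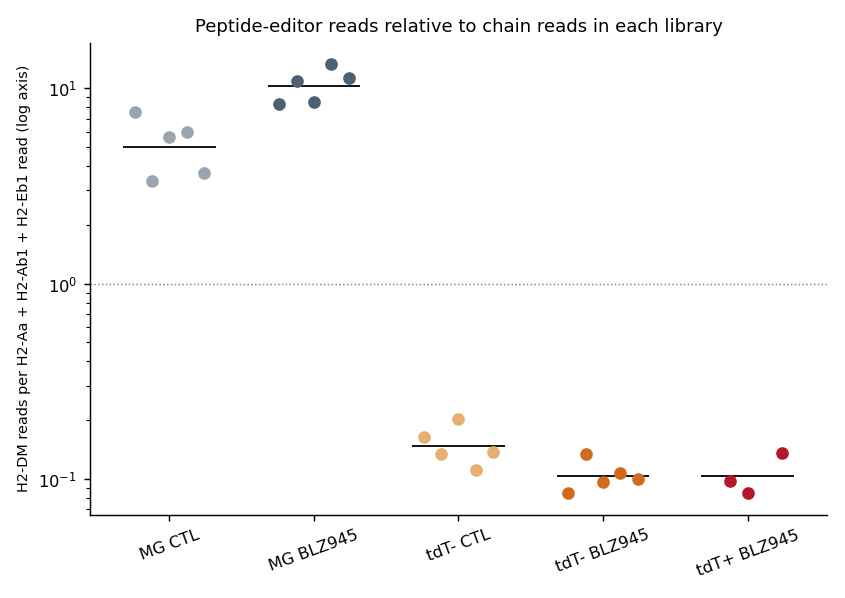
Reads of the 3 H2-DM genes per read of H2-Aa, H2-Ab1 and H2-Eb1 in each library, on a log axis (points: libraries; lines: geometric means; dotted line: equal reads). MG libraries lie between 3.34 and 13.3 and sdCAM libraries between 0.0844 and 0.202.

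The restrainer of H2-DM was a microglial transcript. H2-Oa was 21.3, 19.2, 26.2, 21.4 and 11.1 CPM in MG CTL and 23.8, 31.3, 21.9, 23.6 and 21.1 CPM in MG BLZ945 (F1, F2, F3, M1, M2). In tdT- CTL it was 0.758, 0, 0.592, 0 and 0.81 CPM, and in tdT- BLZ945 2.89, 0, 1.44, 0 and 0 CPM. Thus 5 of 10 tdT- libraries had no H2-Oa count at all, and no sdCAM library came near an MG library. It was called lower in tdT- sdCAMs in CTL (edgeR adjusted p = 0.000231) and BLZ945 mice (edgeR adjusted p = 0.000552). Against MG BLZ945 it was also called lower in tdT+ sdCAMs (1.91, 0 and 0.602 CPM; edgeR adjusted p = 0.0415, against 7.05% of genes called lower), but the adjusted p was 0.0974 with a block for the animal and 0.0524 to 0.114 when any 1 of the 8 libraries compared was left out. H2-Ob, its partner chain, shared the pattern, at 26.3 to 46.3 CPM in MG CTL and 0 to 6.23 CPM in tdT- CTL (log2 difference -3.23 ± 0.75, edgeR adjusted p = 0.00258). H2-O is otherwise known from B cells. Of B cell markers in MG BLZ945, Cd79b was 3.01 to 9.64 CPM (28.8 to 48.4 CPM in MG CTL), Cd79a was counted in 1 of 5 libraries, and Ms4a1 and Pax5 were at 0. Their part in the level of H2-Oa was not tested.

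Ciita itself was barely counted. It had 0 counts in 8 of 10 MG libraries, 3 in MG CTL M2 and 2 in MG BLZ945 F2. In tdT- CTL it had 7 counts in F1, 84 in F2, 9 in F3, 115 in M1 and 9 in M2, in tdT- BLZ945 109 in F1, 0 in F2, 35 in F3, 0 in M1 and 0 in M2, and in tdT+ BLZ945 33 in F2, 2 in F3 and 23 in M2. Counts thus varied within each sdCAM group from a few, or none, to over 30. The 3 tdT- BLZ945 libraries without a Ciita count still held 417 to 888 CPM of H2-Aa, and tdT+ F3, with 2 counts, held 3072 CPM. A count of 0 at these depths allows up to 0.334 CPM. Ciita passed the filter on low counts only where sdCAM groups were compared with each other or tdT+ with MG, and none of these tests was called, the lowest edgeR adjusted p being 0.0802 for tdT+ BLZ945 against MG BLZ945 (0.0341 in a model of all 23 libraries). Between tdT- sdCAMs and MG the filter left it out, but it was called higher in tdT- sdCAMs of CTL and of BLZ945 mice with DESeq2, with no filter and in the model of all 23, and in 8 of 10 fits that left out 1 library in each treatment, where it passed the filter. Over the 13 sdCAM libraries, Spearman's rho between Ciita and Cd74 was 0.398, a description over libraries of which several share an animal.

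**Figure D3:**
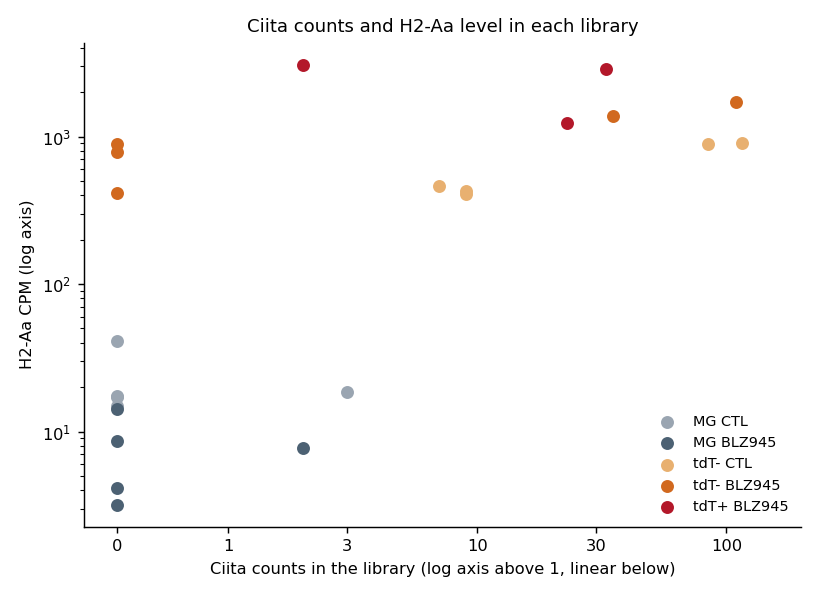
Ciita counts (horizontal, linear below 1 and log above) against H2-Aa CPM (vertical, log axis) in each of the 23 libraries. The sdCAM libraries lie between 406 and 3072 CPM of H2-Aa over a range of 0 to 115 Ciita counts.

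In MG, the comparison of BLZ945 with CTL asked whether cells that had repopulated the brain differed from cells never depleted. The β chain gene H2-Eb1 was 11.6, 27.6, 16.2, 13.5 and 15.9 CPM in MG CTL and 8.93, 5.61, 7.25, 4.08 and 6.43 CPM in MG BLZ945 (F1, F2, F3, M1, M2), without overlap. It fell by 1.40 ± 0.27 (log2, SE; edgeR adjusted p = 0.0354) and was the 1 member called of 8 tested, where 0.160% of 11264 genes were called lower. H2-Aa was 14.2, 7.79, 8.61, 3.19 and 4.14 CPM in MG BLZ945, below every MG CTL library, with a difference of -1.54 ± 0.37 that was not called (edgeR adjusted p = 0.0785). Groups did not overlap, with MG BLZ945 lower, for 2 members, against 1.36% of genes. The partner chain H2-Ab1 had a difference of -0.65 ± 0.21 (edgeR adjusted p = 0.182) and Cd74 one of -0.25 ± 0.17 (95% interval -0.59 to 0.09), neither called. Without MG BLZ945 F3, the differences were -1.46 for H2-Eb1, -1.60 for H2-Aa, -0.74 for H2-Ab1 and -0.41 for Cd74.

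The other members in MG had differences between -0.08 for H2-DMb1 and 0.28 for H2-Oa, and none was called. The ratio of H2-DM to chain reads was 2.06-fold higher in MG BLZ945, without overlap (two-sided exact permutation p = 0.00794, adjusted p = 0.0556). The call of H2-Eb1 was close to the threshold: the adjusted p was 0.0691 without MG BLZ945 F3, 0.0838 without M1, 0.0981 without M2, 0.0842 without MG CTL F2 and 0.0513 without MG CTL M1. Without MG BLZ945 F1 both H2-Aa (adjusted p = 0.0446) and H2-Eb1 were called. Markers of other cells moved with it in part. Cd79b, a B cell marker, was 28.8 to 48.4 CPM in MG CTL and 3.01 to 9.64 CPM in MG BLZ945 and was called lower (-2.33 ± 0.25, edgeR adjusted p = 0.000477), while the B cell marker Pax5 was at 0 in all 10 MG libraries, and Ms4a1 and Cd79a reached at most 1.68 and 1.11 CPM. The sdCAM markers summed to 19.1 to 47.6 CPM in MG CTL and 9.89 to 32.9 CPM in MG BLZ945, and dendritic cell markers to 20.5 to 31.3 and 18.6 to 30.2 CPM. Their part in the result was not tested.

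In tdT- sdCAMs, BLZ945 libraries were more scattered than CTL libraries and no member was called, as no gene was (0% of 13076 genes in the edgeR test, with 5.33% at an unadjusted p under 0.05). Cd74 was 6247, 4266, 5303, 3228 and 1522 CPM in tdT- BLZ945 (F1, F2, F3, M1, M2), which spans values below and above all tdT- CTL libraries. H2-Aa was 1704, 888, 1389, 791 and 417 CPM, in the same order of libraries. The differences were 0.76 ± 0.36 for H2-Aa, 0.80 ± 0.35 for H2-Ab1, 0.73 ± 0.33 for H2-Eb1 and 0.70 ± 0.30 for Cd74 (log2, SE), and 0.25 ± 0.28 for H2-DMa, all with an edgeR adjusted p of at least 0.863. Over the 9 members the median difference was 0.73 and 8 were positive, beside a median of 0.00 over all genes. Of the unadjusted p-values, 3 were under 0.05. The library with markers of other leukocytes, F1, was the highest of the group for 8 of 9 members, and without it the differences of the 4 genes were 0.49 to 0.52, again uncalled. Without F3 they were 0.59 to 0.65, without M1 0.77 to 0.86 and without tdT- CTL M1 0.81 to 0.98, none called. The B cell marker Cd79b was 24.6 to 38.1 CPM in tdT- CTL and 0 to 6.27 CPM in tdT- BLZ945, lower in every library (-2.73 ± 0.69) but not called (edgeR adjusted p = 0.436), and its part in these values was not tested. DESeq2 called no member either, though it called 0.545% of 13393 genes (73). The model of all 23 libraries called 0.210% of 13790 genes (29) and no member. H2-DM reads per chain read had a median of 0.138 in tdT- CTL and 0.100 in tdT- BLZ945, and the groups overlapped (log2 difference -0.51, two-sided exact permutation p = 0.0159, adjusted p = 0.0635).

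Whether tdT- sdCAMs and MG answered BLZ945 alike was tested as a difference of effects. This difference of effects was 2.12 ± 0.45 (log2, SE) for H2-Eb1 and 2.28 ± 0.56 for H2-Aa, and neither was called (edgeR adjusted p = 0.103 and 0.159, against 0.0394% of 12697 genes called in either direction). With a block for the animal, H2-Aa was called (2.29, edgeR adjusted p = 0.0265) and H2-Eb1 was not (adjusted p = 0.188). Without tdT- BLZ945 M2, H2-Eb1 was called (adjusted p = 0.0289). For Cd74 it was 0.93 ± 0.39 and for H2-DMa 0.05 ± 0.36, neither called. Without tdT- BLZ945 F1 it was 1.89 for H2-Eb1, 2.03 for H2-Aa, 1.16 for H2-Ab1 and 0.73 for Cd74, and without tdT- BLZ945 M1 or MG BLZ945 F3 it was 2.17 for H2-Eb1, 2.34 to 2.37 for H2-Aa and 1.01 to 1.09 for Cd74, none called. Without tdT- BLZ945 F3 or tdT- CTL M1 it was 2.01 to 2.30 for H2-Eb1, 2.17 to 2.46 for H2-Aa and 0.84 to 1.05 for Cd74, again uncalled.

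**Figure D4:**
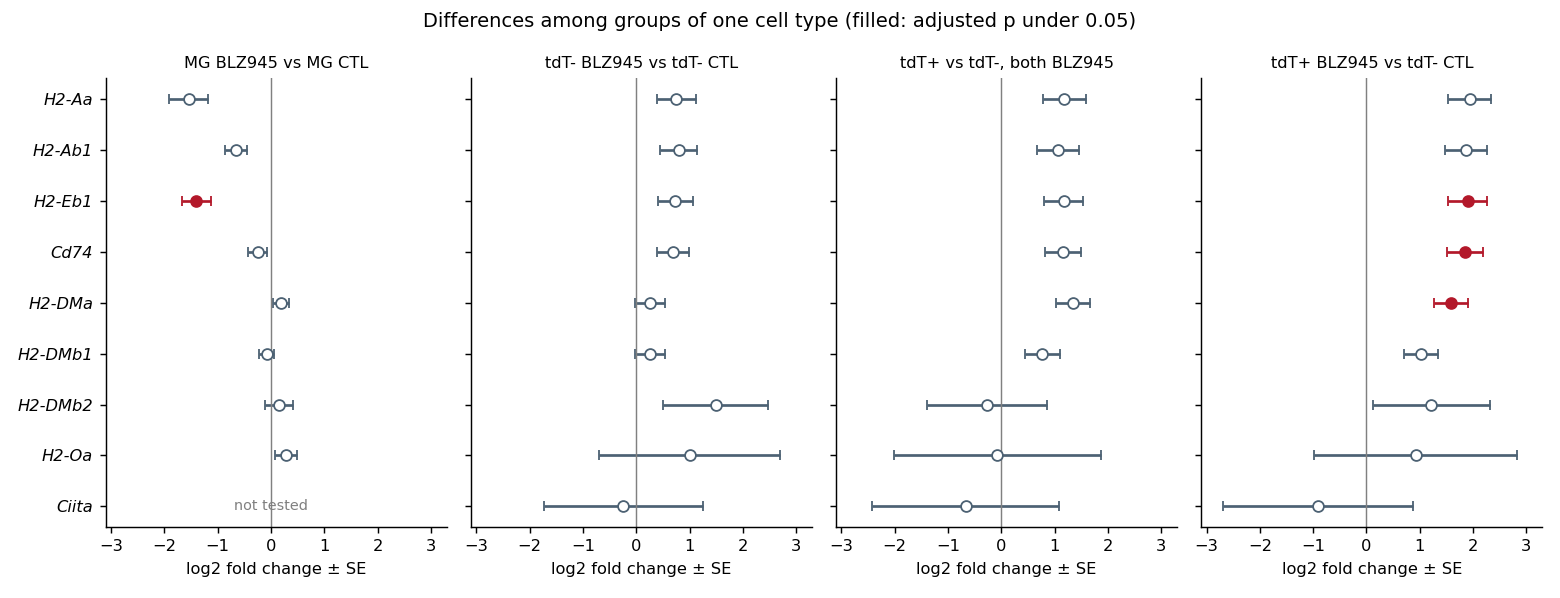
Log2 fold change (horizontal axis) with its SE for each member in 4 comparisons, within MG and among sdCAM groups (filled red: adjusted p under 0.05). H2-Eb1 is filled in MG, and H2-Eb1, Cd74 and H2-DMa between tdT+ BLZ945 and tdT- CTL.

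By group mean, H2-Aa, H2-Ab1, H2-Eb1, Cd74, H2-DMa and H2-DMb1 were highest in tdT+ sdCAMs, the descendants of Ccr2-expressing cells. H2-DMb2 and H2-Oa were highest in MG BLZ945 (11.9 and 24.3 CPM), and Ciita in tdT- CTL (3.52 CPM). Cd74 was 10935 CPM in F2, 11119.5 in F3 and 5764 in M2, and H2-Aa was 2853, 3072 and 1229 CPM. H2-Eb1 was 2001, 1987 and 962 CPM, and H2-DMa 529, 521 and 369 CPM. Libraries F2 and F3 stood close together, and M2 was lower for each of these genes. Cd74, H2-Aa and H2-Eb1 were higher in tdT- BLZ945 F1 (6247, 1704 and 1145 CPM) than in tdT+ M2, and H2-DMa was lower there (203 CPM). Against tdT- CTL, H2-Eb1 (1.90 ± 0.37, log2, SE; edgeR adjusted p = 0.0348), Cd74 (1.85 ± 0.34; 0.0245) and H2-DMa (1.59 ± 0.32; 0.0480) were called higher. That is 3 of 9 members, against 0.0688% of 13076 genes called higher. The members were chosen with earlier results of these data known, and most moved together across sdCAM libraries, so their calls are not independent. The chains of I-A missed the threshold, with 1.94 ± 0.40 for H2-Aa (edgeR adjusted p = 0.0549) and 1.86 ± 0.39 for H2-Ab1 (0.0602). H2-Aa was called with a replicate block, which here joins different animals that carry the same label. In 6 members every tdT+ library lay above every tdT- CTL library, against 3.27% of genes. Among them was H2-DMb1, with an uncalled difference of 1.03 ± 0.32 (edgeR adjusted p = 0.404).

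The calls were near the threshold. No member was called without tdT- CTL F1, F3 or M2 or without tdT+ F2 or F3, the differences being 1.47 to 1.84 for the 3 genes. Without tdT- CTL F2, Cd74 and H2-DMa stayed called and H2-Eb1 had an adjusted p of 0.0585, without tdT- CTL M1 H2-DMa had one of 0.106 and Cd74 (1.97) and H2-Eb1 (2.08) stayed called, with H2-Aa at 2.11 (0.0667), and without tdT+ M2 it had one of 0.0544 while H2-Aa (0.0274) and H2-Ab1 (0.0423) were called. Without tdT+ F3, the library with Ttr, Cd74 was 1.70 higher (edgeR adjusted p = 0.153) and H2-Aa 1.71 higher (0.288). Dendritic cell markers summed to 19.2 to 23.8 CPM in tdT+ and 15.3 to 29.3 CPM in tdT- CTL libraries, and Ccr7, Xcr1 and Clec9a were at 0 in all tdT+ libraries. Cd163, an sdCAM marker, was called lower in tdT+ than in tdT- CTL cells (-2.27 ± 0.26, edgeR adjusted p = 0.000532). Monocyte markers summed to 8.04 to 43.0 CPM in tdT+ and 5.87 to 23.9 CPM in tdT- CTL. Ccr2, which marks the lineage, was 8.04 to 42.9 CPM in tdT+ and 5.87 to 17.7 CPM in tdT- CTL cells. The part of these cells in the result was not tested.

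Between tdT+ and tdT- sdCAMs of the same BLZ945 animals, 6 members had a shared direction, and which of them was called depended on the fit. This comparison shares its tdT+ libraries with the one above. H2-Aa was 3.21-fold higher in tdT+ cells of F2, 2.21-fold in F3 and 2.95-fold in M2. Cd74 was 2.56-, 2.10- and 3.79-fold higher, and H2-DMa 2.29-, 1.89- and 4.97-fold higher. The same held for H2-Ab1, H2-Eb1 and H2-DMb1, at 1.60- to 3.63-fold, so that 6 of 9 members were higher in tdT+ cells in 3 of 3 animals or pools, against 13.5% of 13076 genes. The other members had no shared direction: H2-DMb2 was 0.785-fold in F2 and higher in F3 and M2, and H2-Oa and Ciita were lower in tdT+ cells of F3 and higher in F2 and M2. Over all libraries the differences were 1.18 ± 0.40 for H2-Aa, 1.06 ± 0.39 for H2-Ab1, 1.17 ± 0.37 for H2-Eb1, 1.16 ± 0.34 for Cd74, 1.34 ± 0.32 for H2-DMa and 0.77 ± 0.32 for H2-DMb1 (log2, SE). In the edgeR test without a block none was called, against 0.206% of 13076 genes, and 6 members had an unadjusted p under 0.05, against 6.91% of genes.

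With a block for the animal, H2-Aa was called (1.45, edgeR adjusted p = 0.0464), and H2-Eb1 and Cd74 had an adjusted p of 0.0794 each. H2-DMa, the 1 member whose tdT+ libraries all lay above the tdT- BLZ945 libraries, against 1.75% of genes, had an edgeR adjusted p of 0.182 without the block and 0.557 with it. DESeq2 called it (adjusted p = 0.0152). Cd79b moved alongside, at 11.3 to 50.3 CPM in tdT+ and 0 to 6.27 CPM in tdT- BLZ945 cells, with Cd79a at 0 in both and Ms4a1 at no more than 2.28 CPM, and the part of such cells in the result was not tested. Of 4 microglial markers, 2 had a positive difference, and the median was -0.015 (log2). Tmem119 was 54.3 to 123 CPM in tdT+ and 21.4 to 38.1 CPM in tdT- BLZ945 cells, without overlap, and was not called (1.62 ± 0.46, edgeR adjusted p = 0.401). P2ry12 (241 to 390 against 281 to 396 CPM), Siglech (210 to 423 against 185 to 654 CPM) and Sall1 (0.989 to 3.83 against 0.429 to 5.57 CPM) overlapped. Cd163 was called lower in this comparison too (-2.07 ± 0.26, edgeR adjusted p = 0.00117), at 322 to 375 CPM in tdT+ and 814 to 2015 CPM in tdT- BLZ945 cells. Without tdT- BLZ945 F1, the library with markers of other leukocytes, the differences were 1.44 for H2-Aa, 1.36 for Cd74 and 1.37 for H2-DMa, without tdT- BLZ945 F3 they were 1.31, 1.27 and 1.53, and without tdT- BLZ945 M1 they were 1.10, 1.08 and 1.26. Without tdT+ F3, the library with choroid plexus markers, they were 0.97, 1.01 and 1.27, and none was called in these fits. H2-DM reads per chain read differed by 0.00 on the log2 scale between tdT+ and tdT- BLZ945 cells (exact permutation p = 0.964), and by -0.19 to 0.15 when 1 library was left out. H2-DMb2, H2-Oa and Ciita had differences of -0.27 ± 1.13, -0.08 ± 1.94 and -0.67 ± 1.76, whose errors allow changes in either direction.

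**Figure D5:**
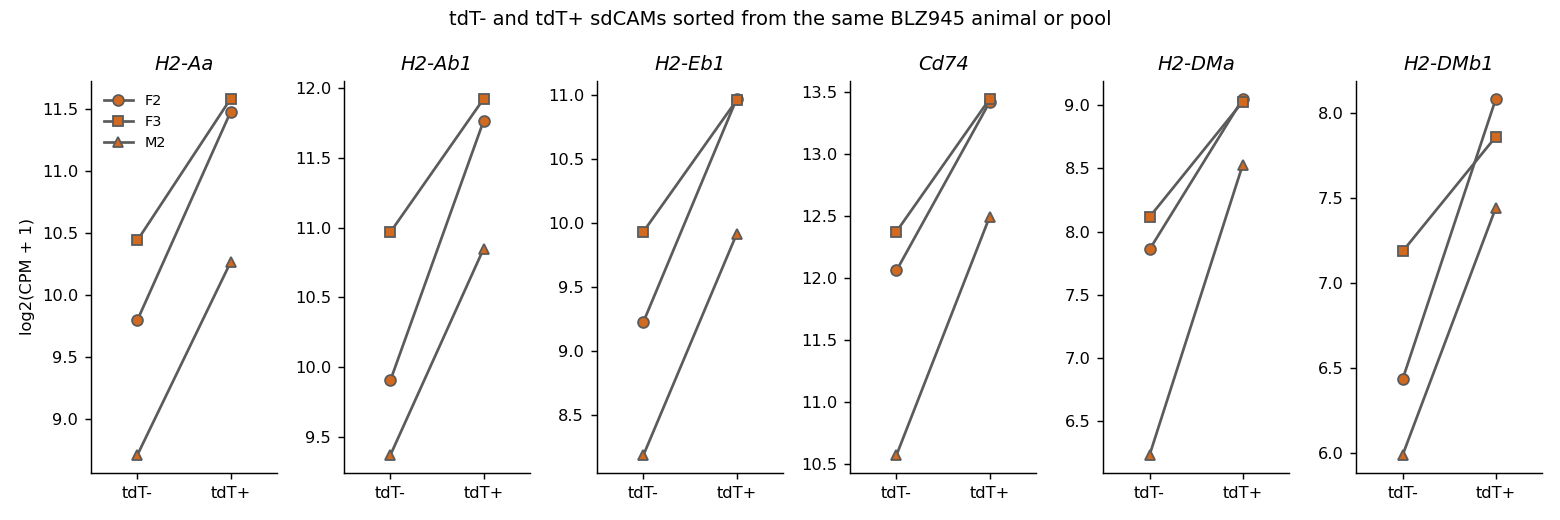
Level of the 6 members that were higher in tdT+ cells in all 3 pairs, as log2(CPM + 1), in tdT- and tdT+ sdCAMs of the same BLZ945 animal or pool (lines join F2, F3 and M2; each panel has its own vertical range). The genes were chosen by this direction, so every line rises. H2-DMb2, H2-Oa and Ciita, which had no shared direction, are not shown.

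Other genes of the class II pathway were called in both directions between sdCAMs and MG. Of 7 genes for factors that bind class II promoters (Rfx5, Rfxap, Rfxank, Nfya, Nfyb, Nfyc, Creb1), none was called in comparisons among MG or among sdCAM groups, where 0% to 0.408% of all genes were called. Nfya, a subunit of the Y box factor, was the 1 called in tdT- sdCAMs against MG of CTL mice (-1.20 ± 0.38, edgeR adjusted p = 0.0245), where 15.3% of all genes were called higher and 10.3% lower. Of 9 genes for endosomal peptide processing, 1 was called higher and 6 lower in tdT- sdCAMs than in MG of CTL mice, with a median of -0.55, and 1 and 5 in BLZ945 mice, where the shares of all genes were 15.3% and 10.3% in CTL and 18.3% and 14.1% in BLZ945 mice. Ctss, the protease that trims the invariant chain, was lower (-1.20 ± 0.12, edgeR adjusted p = 5.09e-08), as was Ctsd (-1.21 ± 0.15, 1.62e-06), and Ctsb was higher (0.77 ± 0.17, 0.00128). Among the sdCAM groups Ctss was not called, at 4715 ± 332 CPM (SD) in the tdT- cells of CTL mice and, in BLZ945 mice, at 5837 ± 785 CPM in tdT- and 6454 ± 1151 CPM in tdT+ cells.

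Of 7 genes of interferon-gamma signalling, 3 were called lower (10.3% of all genes) and none higher (15.3%) in tdT- sdCAMs than in MG of CTL mice, led by the receptor chains Ifngr1 (-0.54 ± 0.11, edgeR adjusted p = 0.000492) and Ifngr2 (-0.70 ± 0.14, 0.000589). Among genes that govern class II at the cell surface, Marchf1, a ligase that tags it for degradation, was called lower in tdT- sdCAMs than in MG of BLZ945 mice (-0.94 ± 0.18, edgeR adjusted p = 0.000436). Cd83, which opposes it, was called lower in CTL (-0.98 ± 0.28, adjusted p = 0.0126) and in BLZ945 mice. Of 5 genes for costimulation tested, Cd40 was the 1 called in tdT- sdCAMs of CTL mice, and it was higher than in MG (3.40 ± 0.59, edgeR adjusted p = 0.000143), against 15.3% of all genes. In BLZ945 mice Cd40 was called higher (2.36 ± 0.57, edgeR adjusted p = 0.00276; 18.3% of all genes), and Icosl (-1.35 ± 0.29, 0.000966) and Cd274 (-2.49 ± 0.72, 0.0107) were called lower (14.1%). Of 5 genes that share the class II region but serve other functions, Psmb8 (0.53 ± 0.13, edgeR adjusted p = 0.00393) and Psmb9 (0.88 ± 0.19, 0.00122), proteasome subunits for class I peptides, were called higher in tdT- sdCAMs than in MG of CTL mice, and Brd2 was called lower (-0.43 ± 0.15, 0.0367), against 15.3% and 10.3% of all genes. In the 4 comparisons among MG or among sdCAM groups, none of the genes of these lists was called, against 0.408% of all genes for BLZ945 against CTL in MG and 0% in tdT- cells, and 0.206% and 0.283% for tdT+ cells against tdT- BLZ945 and tdT- CTL cells. Calls were thus rare among all genes in these comparisons. H2-Ea, the α chain of I-E, had 1 count over all 23 libraries; it was named after its value was seen, and many laboratory strains are known to lack its promoter.

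Across the 13 sdCAM libraries, the levels of most members moved together. Spearman's rho with Cd74 was 0.945 for H2-Aa and H2-Eb1, 0.923 for H2-DMa, 0.912 for H2-Ab1 and 0.907 for H2-DMb1, and 0.456 for H2-DMb2 and 0.254 for H2-Oa. Among 8547 other genes with a mean log2 CPM of at least 3, those most like Cd74 were Afdn (0.945), Vim (0.907), Hfe (0.901), Clec4b1 (0.890) and Gngt2 (0.890). In the 10 MG libraries rho with Cd74 was 0.576 to 0.624 for the chains and -0.0788 for H2-DMa, -0.321 for H2-DMb1 and -0.394 for H2-DMb2 and H2-Oa. The genes most like Cd74 there were Strap (0.952), Zscan22 (0.927), Arpc2 (0.915), Imp4 (0.915) and Tagln2 (0.891). The points share groups, animals and sequencing depth, so these values describe the libraries and carry no p.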

How the data were processed

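Sorted cells of 23 samples were profiled by SMART-Seq mRNA libraries from picogram amounts of RNA. Per the labels, the authors processed reads with bcl2fastq 2.20, STAR 2.7.11a and featureCounts 2.0.6 and deposited whole-number counts per gene symbol, not normalized. Which of 2 mouse builds served is unclear, and multimapping and strand settings are not given in the sources used here. Counts were tested with edgeR 4.0.16 (R 4.3.3): TMM factors, filterByExpr, quasi-likelihood F-test, Benjamini-Hochberg over all genes tested, called at adjusted p under 0.05. SE is the log2 fold change divided by the root of F. Intervals are 95% by a normal approximation to that SE, so they are narrower than the F-test would give. CPM used TMM-scaled totals. BLZ945 was compared with CTL in a fit of the 10 MG libraries, sdCAM groups in one of 13, tdT- with MG in one of 20, and tdT+ with MG in one of the 13 BLZ945 libraries. Ratios of summed counts (0.5 added) were compared by two-sided exact permutation tests (scipy 1.17.1). DESeq2 1.42.0, used by the authors at 1.46.0, was an alternative. The tests were checked on simulated data. Between libraries of the same group, chi-square per gene was at least 15.8, and none was counted as a duplicate. Every column matched a sample.

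Same-label libraries within a treatment come from the same animal or pool by the labels, and their deviations from group means correlated at 0.0330 to 0.195 across genes. Replicates are labelled as separate animals or pools, except that BLZ945 F2 and M1 may share an animal. All members are named, and other list genes only where called, at most 3 per list and comparison. The 5 genes most like Cd74 exclude predicted genes. The members and lists were chosen with earlier results of these data known. One marker gene is not reported here.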

Additional observations from a re-analysis of the deposited data

Results flagged for a closer look

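Within groups of 5 libraries, 52 sets of values (9 members and 4 ratios) were checked for a library whose gap to the nearest other exceeded Dixon's 95% limit, and 7 were found. Chance gives about 1 in 20 where values are normally distributed. That rate does not hold for the flagged sets of Ciita, where most libraries were at 0. H2-Aa in MG CTL F2 was 40.9 CPM, with the next library at 18.5 CPM. H2-DMb1 in MG CTL M2 was 101.5 CPM, below the next at 145.8 CPM. H2-Oa in MG BLZ945 F2 was 31.3 CPM, above the next at 23.8 CPM. Ciita was 0.23 CPM in MG CTL M2 (3 counts) and 0.168 CPM in MG BLZ945 F2 (2 counts), where the other libraries had no count. Ciita in tdT- BLZ945 F1 was 11.7 CPM, with the next at 3.15 CPM, in the library that also carried markers of other leukocytes. The log2 ratio of Cd74 to chain reads in tdT- BLZ945 F2 was 0.80, above the next at 0.32.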

How the results depend on the processing

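The differences of H2-Aa, H2-Ab1, H2-Eb1 and Cd74 between sdCAMs and MG stayed called under each alternative run (DESeq2, DESeq2 size factors in edgeR, no filter on low counts, at least 10 counts in every library, all 23 libraries in one model, a replicate block, and each library left out). In MG, BLZ945 against CTL, 1 member was called, against 2 (H2-Aa and H2-Eb1) with DESeq2, with no filter and with a replicate block, 0 in the model of all 23 libraries, and 0 to 2 with a library left out. Of all genes tested, 0.408% were called there (46), against 2.03% with DESeq2, 0.905% (193) with no filter, 0.0870% (12) in the model of all 23 and 0.790% (89) with the block. In tdT+ against tdT- BLZ945, 0 members were called, against 1 (H2-DMa) with DESeq2 and in the model of all 23, and 1 (H2-Aa) with the replicate block, and the 27 calls over all genes became 189, 82 and 6. In tdT+ BLZ945 against tdT- CTL, 3 members were called. With DESeq2, no filter, at least 10 counts in every library and all 23 libraries, 5 were called (H2-Aa, H2-Ab1 added). With the replicate block 4 were called (H2-Aa added), and with a library left out 0 to 4. The 37 calls over all genes became 228 with DESeq2, 61 with no filter, 48 with at least 10 counts, 121 with all 23 and 36 with the block. For the difference of the BLZ945 effect, 0 members were called, against 2 with DESeq2, 1 with no filter, 1 with the replicate block and 0 to 1 with a library left out. The 5 calls over all genes (0.0394%) became 110 (0.736%) with DESeq2, 9 (0.0383%) with no filter and 1 (0.00788%) with the block. With no offset on the counts, 5 of 28 ratio tests passed, against 0. The cause of these shifts was not tested.

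Uncalled values that turned sign with the replicate block were, in tdT+ against tdT- BLZ945, H2-DMb2 (1.14), H2-Oa (2.76), Ciita (3.90) and the log2 ratios of Cd74 (-0.0060) and H2-DM (-0.0776) to the chains and of H2-DMb1 to H2-DMb2 (-0.27), in tdT+ BLZ945 against tdT- CTL, Ciita (0.12), and in the difference of effects, H2-DMa (-0.0461) and H2-Oa (-0.147). Leaving out 1 library moved uncalled values across 0 as follows. In tdT- BLZ945 against CTL, H2-DMb1 ran from -0.0504 to 0.431 and Ciita from -2.13 to 0.45. In tdT+ against tdT- BLZ945, H2-DMb2 ran from -0.82 to 0.12, H2-Oa from -1.50 to 0.52, Ciita from -1.24 to 1.22, and the log2 ratios of Cd74 to the chains from -0.0060 to 0.16, of H2-DM to the chains from -0.19 to 0.15, of H2-Eb1 to H2-Aa from -0.0620 to 0.0757 and of H2-DMb1 to H2-DMb2 from -0.27 to 1.17. In tdT+ BLZ945 against tdT- CTL, H2-Oa ran from -0.50 to 1.51, and the ratios of Cd74 to the chains from -0.124 to 0.0313, of H2-Eb1 to H2-Aa from -0.105 to 0.0322 and of H2-DMb1 to H2-DMb2 from -1.28 to 0.0933. H2-DMb1 ran from -0.39 to 0.10 in tdT- against MG of BLZ945 mice, and in the difference of effects H2-DMa ran from -0.13 to 0.25 and H2-Oa from -0.45 to 1.09. Libraries of different animals that carry the same label were blocked too, as a number only: their deviations correlated at -0.0084 to 0.196 in MG, -0.0823 to 0.0445 in tdT- cells and -0.0484 to 0.0230 between tdT+ and tdT- CTL, and 1 of 5, 2 of 5 and 0 of 3 were closest to their own label. Depth limits Ciita and H2-Oa, where 3 counts equal up to 0.334 CPM.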
